A study of Caenorhabditis elegans with 2 samples.

Results

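The genes described here are 10 members of the BMP-like body size pathway of Caenorhabditis elegans, also called the Sma/Mab branch of TGF-beta signalling. They were chosen by name from 19973 protein-coding genes on the nuclear chromosomes, and are dbl-1, tig-2, daf-4, sma-6, sma-2, sma-3, sma-4, sma-9, lon-2 and kin-29. Each gene was described by the peak summits that lie within 5000 bp of its body in lists of UNC-130 ChIP-seq peaks. All positions are on ce11, the WBcel235 assembly, and count from 1.

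In the canonical pathway a secreted ligand binds a complex of type I and type II receptor kinases, which phosphorylate receptor-regulated Smads. These join a co-Smad, enter the nucleus and act with cofactors on target genes. In the worm the pathway is known for setting body length and the pattern of sensory rays in the male tail: loss of its positive members gives small animals, and loss of some inhibitors gives long ones.

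UNC-130 is a forkhead transcription factor of the FoxD class. Chromatin was taken from whole L1 larvae, the stage that hatches from the egg, as 2 biological replicates of 1 group, with fragments of 150 to 350 bp. Both replicates were of strain OP77, mixed in sex, which is unc-119(ed3) III and carries wgIs77, an integrated transgene for the eGFP fusion of UNC-130. No untagged strain or control library was analysed here, so no contrast between conditions exists and no test between groups was possible. As material the strain has limits. The fusion protein came from a transgene whose promoter the labels do not name. The antibody label names unc-130 while the description names the eGFP fusion, so precipitation of untagged UNC-130 was not tested. In whole larvae a peak in few cells and a weak peak in many cells cannot be told apart.

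The optimal, pooled and replicate lists were used, and rank 1 is the highest signal of a list, on the scale that the authors' peak caller assigned within it. The optimal list, which passed the authors' reproducibility threshold, held 2631 peaks, which are the 2631 highest among the 30000 candidates of the pooled list. The list of replicate 1 held 30000 candidates and that of replicate 2 held 25234. A peak is called high in a replicate when it is among the 2631 highest of that replicate. The optimal list ends at a pooled signal of 23.5, and the next candidate below it also has 23.5. Summits were the exact centre of the peak for 2619 of 2631 optimal peaks, and 2618 of them have the same width of 250 bp, so whether a summit is a measured maximum was not tested. Read depth is unknown because the files hold no read counts.

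Of the 10 genes 8 had optimal peaks within 5000 bp, against 30.0% of all protein-coding genes. The 8 genes held 15 peaks, and the genes without one were dbl-1, the main ligand, and lon-2, an inhibitor. The pathway genes are long, with a median body of 5581 bp against 2027 bp for all protein-coding genes, so their windows are wider than those behind the 30.0%. Counted per length of window, there were 9.23 optimal summits per 100 kb over 162.5 kb around the 10 genes and 2.62 over the genome. Without sma-9, which held 5 of the peaks, the value was 7.2 per 100 kb. Genome length includes regions far from genes, so the comparison of densities is only a description. The 10 genes were also chosen with earlier results of these data known, so neither contrast with all genes or the genome is a test.

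The peaks were of middling height. Their median optimal rank was 1439, from 276 to 2511, against 1316 for the whole list. Of the 15, 7 lay upstream of the gene, 5 in its body and 3 downstream. By annotation 8 were in a promoter, here within 500 bp of the 5′ end of some protein-coding gene, 3 in an intron, 3 intergenic and 1 in a coding exon. The nearest 5′ end belonged to the pathway gene itself for 9 peaks and to another gene for 6. When each peak was given only to the gene with the nearest 5′ end within 2000 bp, 4 pathway genes kept a peak, namely tig-2, sma-2, sma-9 and kin-29, against 9.33% of all genes.

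**Figure D1:**
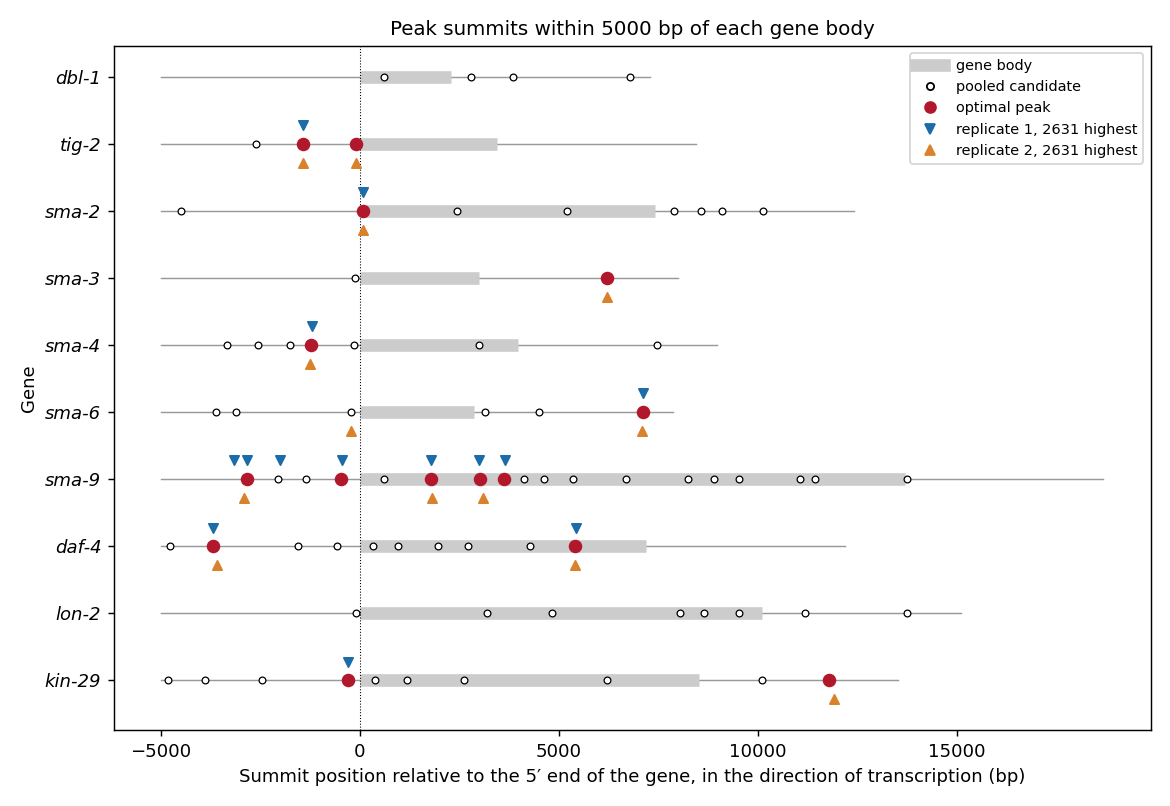
Summits around the 10 genes, by distance in bp from the 5′ end of each gene in the direction of transcription. Grey bars are gene bodies, open circles pooled candidates, red circles optimal peaks, and triangles high peaks of replicate 1 (pointing down) and replicate 2 (pointing up). The 15 optimal peaks lie near 8 genes, with 5 at sma-9 and none at dbl-1 or lon-2.

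The summit sequences of 6 of these peaks are given because they carry the contrasts described below. They are the tallest peaks by pooled rank (sma-6, tig-2 and sma-9), the promoter peaks of tig-2 and kin-29, and the peak of sma-3 that the replicates did not share. Each runs from 50 bp before to 50 bp after the summit and was read from the RefSeq WBcel235 genome, 5′ to 3′ on the strand of the pathway gene. Capitals mark a match to a degenerate forkhead core, explained further on.
tig-2 upstream, chrV:4731548-4731648, minus strand: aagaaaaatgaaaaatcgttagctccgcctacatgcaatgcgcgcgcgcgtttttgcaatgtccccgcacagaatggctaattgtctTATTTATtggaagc
tig-2 promoter, chrV:4730211-4730311, minus strand: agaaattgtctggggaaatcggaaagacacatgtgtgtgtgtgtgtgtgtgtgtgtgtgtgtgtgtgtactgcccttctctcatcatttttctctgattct
sma-6 downstream, chrII:6331551-6331651, plus strand: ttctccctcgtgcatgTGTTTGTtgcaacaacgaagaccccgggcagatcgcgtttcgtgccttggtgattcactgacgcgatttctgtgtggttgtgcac
sma-3 downstream, chrIII:6857707-6857807, minus strand: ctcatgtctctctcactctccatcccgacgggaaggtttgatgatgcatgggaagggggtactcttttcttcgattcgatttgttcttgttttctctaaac
sma-9 upstream, chrX:10766382-10766482, plus strand: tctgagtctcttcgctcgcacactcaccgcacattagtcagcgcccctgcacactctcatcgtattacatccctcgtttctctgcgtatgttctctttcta
kin-29 promoter, chrX:2852692-2852792, minus strand: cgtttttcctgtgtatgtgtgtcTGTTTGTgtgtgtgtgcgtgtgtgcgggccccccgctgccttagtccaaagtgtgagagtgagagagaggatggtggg

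The ligand genes differed from each other. dbl-1 encodes the BMP-like ligand that drives the pathway, and it lies on the plus strand at chrV:6758135-6760418. No optimal peak and no high peak of either replicate lay within 5000 bp of it. Its best pooled candidate had rank 9015, with a signal of 9.36 and a −log10 q of 0.738, and lay 6797 bp downstream of its 5′ end in the promoter of a neighbouring gene, bbs-8. The best rank near dbl-1 was 12084 in replicate 1 and 18615 in replicate 2. The nearest optimal peak lay 8365 bp from the gene body, had rank 1210 and was closest to the 5′ end of clik-1.

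tig-2, which encodes another ligand of the TGF-beta superfamily, lies on the minus strand at chrV:4726721-4730161 and had 2 optimal peaks. The upstream peak, 1437 bp before the 5′ end of tig-2, had optimal rank 303 and a pooled signal of 68.2. It ranked 276 in replicate 1 and 498 in replicate 2, so both replicates placed it high. Its nearest 5′ end, at 313 bp, is that of F39G3.3, so its assignment to tig-2 rests on the 5000 bp window.

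The second tig-2 peak, 100 bp before the 5′ end, had optimal rank 2511, the lowest of the 15. It ranked 3969 in replicate 1, outside the high peaks, and 1448 in replicate 2, inside them. Its printed window holds an unbroken alternating run of G and T 37 bp long. Runs of at least 20 bp occurred in the windows of 15 of 2631 optimal peaks, 0.57%, and in no other of the 15 pathway peaks, where the longest was 12 bp, at the kin-29 promoter. This search was chosen after the sequence had been seen. The bearing of the repeat on read placement was not tested.

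Both receptor genes had optimal peaks, but neither had one at its own 5′ end. daf-4 encodes the type II receptor, which this branch shares with the dauer branch of TGF-beta signalling, and lies on the plus strand at chrIII:5625135-5632323. Its taller peak, optimal rank 980, lay 5410 bp into the gene in a coding exon, at chrIII:5630420-5630669. That peak ranked 2157 in replicate 1 and 445 in replicate 2. Its other peak, 3682 bp upstream and of optimal rank 1580, went the other way, with rank 1181 in replicate 1 and 2618 in replicate 2. The gene with the 5′ end nearest to the exonic peak is ckk-1, which encodes a kinase of calmodulin-dependent kinases, at 4934 bp.

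sma-6 encodes the type I receptor and lies on the plus strand at chrII:6324484-6327355. Its optimal peak was the tallest of the 15, with rank 276 and a pooled signal of 70.1, but it lay 4246 bp beyond the end of the gene and 260 bp from the 5′ end of set-4. It ranked 207 in replicate 1 and 1073 in replicate 2, so it was high in both. At the 5′ end of sma-6 itself, 220 bp upstream, a candidate ranked 3511 in the pooled list, 4052 in replicate 1 and 2244 in replicate 2. That candidate was therefore high in replicate 2 and not in replicate 1, and it did not reach the optimal list.

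The 3 Smad genes had 1 optimal peak each. sma-2 encodes a receptor-regulated Smad and lies on the plus strand at chrIII:8749680-8757089. Its peak, at chrIII:8749628-8749877, had its summit 73 bp after the 5′ end in an untranslated exon that also falls inside ugtp-1, and had optimal rank 1439. It ranked 2014 in replicate 1 and 1300 in replicate 2. Among the Smad genes this was the sole optimal peak whose nearest 5′ end is that of the Smad gene itself.

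sma-4 encodes the co-Smad and lies on the plus strand at chrIII:5816232-5820204. Its peak, 1220 bp upstream at chrIII:5814887-5815136, had optimal rank 1094, and it ranked 1545 in replicate 1 and 969 in replicate 2. The summit lay 33 bp from the 5′ end of R12B2.7. At the 5′ end of sma-4 the pooled list held a candidate of rank 8976, at −160 bp from that end, which replicate 1 lacked within 500 bp and replicate 2 ranked 3696.

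sma-3 encodes the other receptor-regulated Smad in the set and lies on the minus strand at chrIII:6860974-6863968. It was the sole gene of the 10 that had a high peak in 1 replicate and none in the other. Its optimal peak, chrIII:6857632-6857881, had rank 1647 and a pooled signal of 32.3. In replicate 2 the matching peak ranked 286, with a signal of 30.4. In replicate 1 no peak overlapped it, and the best rank within 5000 bp of sma-3 was 25840. The peak lay 3217 bp beyond the end of the gene, in intergenic sequence past clec-158 and a pseudogene, with zak-1 the nearest 5′ end at 948 bp. At its own 5′ end sma-3 had a candidate at −126 bp that ranked 7688 in the pooled list, 28631 in replicate 1 and 8325 in replicate 2.

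Such a mismatch was uncommon in the optimal list, where 13 of 2631 peaks had no overlapping peak in replicate 1 and 53 had none in replicate 2. Of those 13, 3 were among the first 500 of replicate 2, and the best optimal rank among them was 911. Whether the sma-3 peak is missing from replicate 1 for lack of reads or of occupancy cannot be told apart in these lists.

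sma-9 held the most optimal peaks. It encodes a zinc finger protein related to Drosophila Schnurri, which acts with Smads in the nucleus, and lies on the plus strand at chrX:10769282-10782973. With 13692 bp it is also the longest of the 10 genes. Its tallest peak lay 2850 bp upstream at chrX:10766307-10766556, with optimal rank 338 and a pooled signal of 65.1. Replicate 1 ranked it 387 and replicate 2 ranked it 319. Of the 9 pathway peaks that were high in both replicates, it had the smallest difference in percentile. A weaker upstream peak lay 465 bp before the 5′ end, with optimal rank 1827. Its rank of 1486 made it high in replicate 1, while 2751 in replicate 2 fell just outside the high peaks.

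The other 3 sma-9 peaks lay in introns, 1797, 3009 and 3632 bp after the 5′ end. The first had optimal rank 1034, with 936 as its rank in replicate 1 and 2119 in replicate 2. The second had optimal rank 1193 and went the other way, with rank 2117 in replicate 1 and 560 in replicate 2. The third had optimal rank 1555 and ranked 2281 and 2732, and its summit lay 167 bp from the 5′ end of a shorter annotated sma-9 transcript. Around sma-9 replicate 1 had 7 high summits and replicate 2 had 3.

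The modifiers split as the ligands did. lon-2 encodes a glypican, a cell-surface proteoglycan that restrains the pathway, and lies on the minus strand at chrX:4738964-4749083. Although its body is 10120 bp long, no optimal or high peak lay within 5000 bp of it. Its best pooled candidate had rank 14459, with a signal of 7.27 and a −log10 q of 0.385, in an intron 4821 bp after the 5′ end. The best rank near lon-2 was 9440 in replicate 1 and 8220 in replicate 2, at different positions: the intron in replicate 1 and −307 bp from the 5′ end in replicate 2. The nearest optimal peak was 26862 bp away, had rank 777 and was closest to the 5′ end of glit-1.

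kin-29 encodes a kinase related to mammalian salt-inducible kinases, which acts in body size and in the expression of chemoreceptor genes, and lies on the minus strand at chrX:2843922-2852438. Its promoter peak, 304 bp upstream, had optimal rank 1853, and it ranked 1410 in replicate 1 and 5016 in replicate 2. The −log10 q of that peak was 2.41 in replicate 1 and 2.16 in replicate 2. Its downstream peak, at chrX:2840514-2840763 and 347 bp from the 5′ end of Y71H10B.1, had optimal rank 2449 and ranked 3548 in replicate 1 and 1596 in replicate 2. kin-29 thus counted as high in both replicates, but through a different peak in each.

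**Figure D2:**
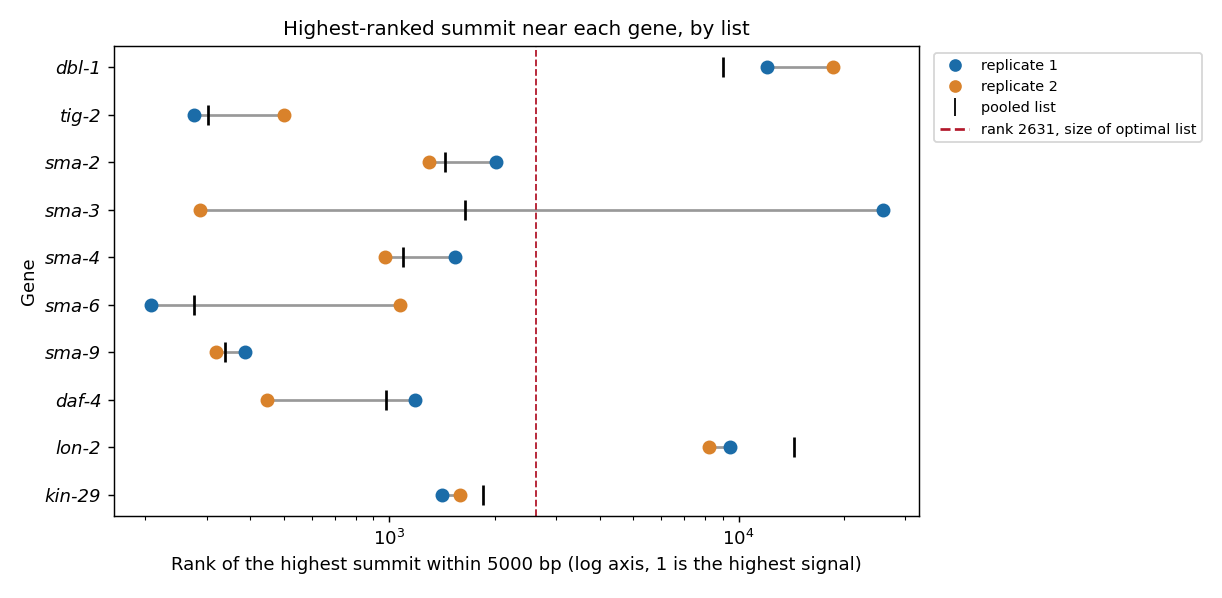
Rank of the highest summit within 5000 bp of each gene, on a log axis where 1 is the highest signal, in replicate 1 (blue), replicate 2 (orange) and the pooled list (black bar). The dashed line marks rank 2631, the size of the optimal list. Only sma-3 has its replicates on opposite sides of the line, at 25840 and 286, and dbl-1 and lon-2 lie to the right of it in every list shown.

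By the highest 2631 peaks, 7 of the 10 genes had a high peak in replicate 1, against 30.5% of all protein-coding genes, and 8 had a high peak in replicate 2, against 27.9%. Both replicates had a high peak, not necessarily the same one, at 7 genes, against 21.4%. The gene that made the difference was sma-3. The number of high summits near the 10 genes was 14 in replicate 1 and 13 in replicate 2, so the totals were close. Of the 15 optimal peaks near these genes 9 were high in both replicates, against 1505 of 2631 in the whole list. The places were thus shared in part, to much the same extent as over the whole list. Counted over all candidates there were 84 summits in replicate 1, 61 in replicate 2 and 76 in the pooled list. These lists hold 30000, 25234 and 30000 candidates in that order, so the 3 counts are not comparable directly.

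The order in which the genes gained a peak also differed between lists. Among the 500 highest peaks, 3 genes had a summit in replicate 1 (8.31% of all genes) and 4 in replicate 2 (7.2%). Among the 1000 highest it was 3 genes in replicate 1 (15.2%) and 5 in replicate 2 (12.9%). At 2000 peaks the counts were 6 (25.3%) and 8 (22.6%). Replicate 2 was ahead of replicate 1 by 1 or 2 genes at each size of list counted, which with 10 genes is a description only. At 20000 peaks, a depth at which 83.3% and 86.4% of all genes had a summit, 9 and 10 pathway genes had one, and such a count carries little.

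**Figure D3:**
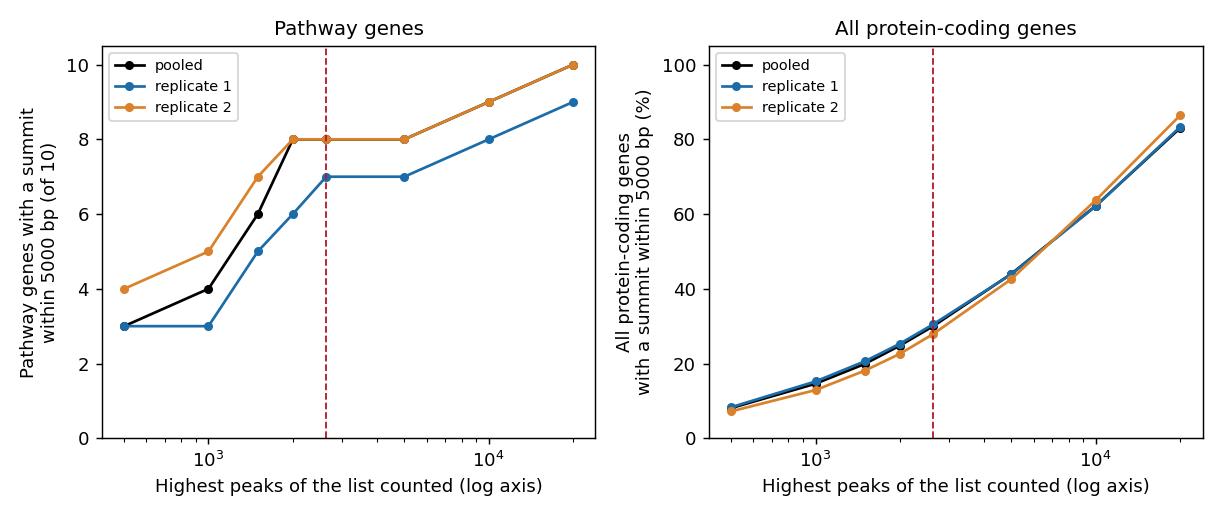
Genes with a summit within 5000 bp as more of each list is counted from the top, on a log axis, for the 10 pathway genes (left, number) and all protein-coding genes (right, percent). Lines are the pooled list (black), replicate 1 (blue) and replicate 2 (orange), and the dashed line marks 2631 peaks. For the pathway genes the counts at 2631 are 8, 7 and 8, while for all genes the 3 lines run close together.

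To set single peaks side by side, each optimal peak matched in both replicates was given its percentile of signal within each replicate, where 100 is the highest. Of the 15 pathway peaks 14 were matched in both, as were 2566 of 2631 in the whole list. The percentile was higher in replicate 2 for 7 of the 14 and lower for 7, against 48.5% higher in replicate 2 over the whole list. The median difference, replicate 2 minus replicate 1, was 1.03 percentile points at the pathway peaks and −0.779 over all matched peaks. Percentiles within each replicate over the same peaks balance out over the whole list by construction, so the values for all peaks say nothing on which replicate was higher. The size of the difference was a median of 30.1 points at the pathway peaks and 24.5 over all matched peaks. The replicate SD of a peak had a median of 21.3 and 17.3 points, in that order.

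The peaks with the closest percentiles were at sma-9 and tig-2. The upstream sma-9 peak had 86.3 ± 1.90 (SD, n = 2), the weakest intron peak of sma-9 had 23.9 ± 0.441 (SD, n = 2), and the upstream tig-2 peak had 85.1 ± 5.92 (SD, n = 2). These 3 are named for their small spread, which is therefore no measure of their error. The match at the weakest intron peak was also loose in place. Its summit lay 3639 bp after the 5′ end in replicate 1 and 3517 bp after it in replicate 2. When matched summits had to lie within 100 bp, 11 peaks stayed matched in both replicates. This intron peak and both kin-29 peaks did not. Beyond the 3 peaks of small spread, the replicates lay far apart for most peaks. The exonic daf-4 peak had percentiles of 26.7 in replicate 1 and 82.9 in replicate 2, the widest difference at 56.2 points. The sma-9 intron peak at 3009 bp followed, with 27.6 and 78.8. These 2 of 14 differed by over 50 points, as did 452 of all 2566 matched peaks, 17.6%.

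In the opposite direction the kin-29 promoter peak differed most, with 47.5 in replicate 1 and 8.07 in replicate 2, a difference of −39.4 points. Its matched summits lay apart, at −310 bp from the 5′ end in replicate 1 and −431 bp in replicate 2. The sma-6 downstream peak had 92 and 61.1, a mean of 76.5 ± 21.8 (SD, n = 2). The tig-2 promoter peak had 7.29 and 49.8, a mean of 28.5 ± 30.1 (SD, n = 2). Of the 15 peaks 9 were high in both replicates, against 1505 of 2631 in the whole list.

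**Figure D4:**
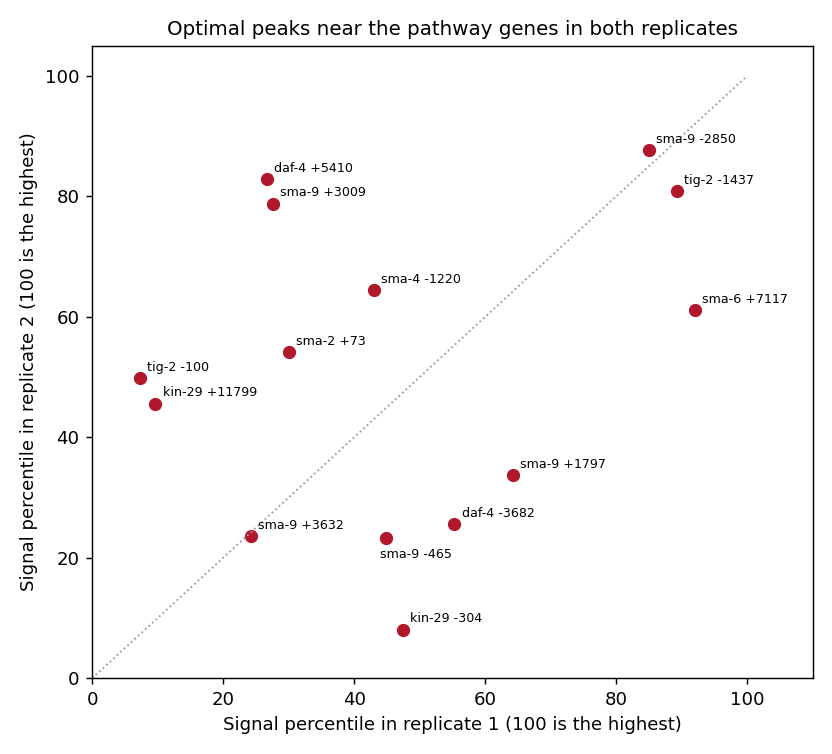
Percentile of signal in replicate 1 (horizontal) and replicate 2 (vertical) for the 14 pathway peaks matched in both, each point a peak named by its gene and its distance in bp from the 5′ end. Points above the dotted line of equal percentiles are higher in replicate 2. Of the 14, 7 lie above and 7 below, and the daf-4 exonic peak is farthest from the line.

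At the 5′ ends themselves the pooled candidates include the optimal peaks, so they cover at least the same genes by construction. Within 500 bp of the gene's own 5′ end the pooled list held a candidate at 9 of the 10 genes, all but dbl-1, against 36.6% of all protein-coding genes, and the optimal list held a peak at 4, against 8.99%. Replicate 1 had a candidate at 7 genes, against 36.2%, and a high peak at 3, against 9.34%. Replicate 2 also had a candidate at 7, against 31.6%, and a high peak at 3, against 7.59%. The 7 leave out sma-9, whose replicate 2 summit of rank 2751 lay at −502 bp, just past the limit. daf-4 had a candidate 330 bp after its 5′ end at pooled rank 9168 and replicate 1 rank 4217, with none in replicate 2. lon-2 had one at −109 bp with pooled rank 21581, and none in replicate 1. The deposited names describe these lists as peaks together with background, and a candidate at such a rank is not a called peak.

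Either strand of the sequence up to 50 bp from each summit was searched for the forkhead sequences TGTTTAC and TGTTTGC. They occurred at 0 of the 15 pathway peaks and at 10.6% of all optimal peaks. A looser core, added after the data had been seen, allows T, then A or G, TT, G or T, A or G, and C or T, which makes 16 forms and includes both stricter ones. It occurred at 4 of the 15 peaks, against 29.5% of all optimal peaks. The matches are TATTTAT 40 bp after the summit of the tig-2 upstream peak, TGTTTGT 31 bp before that of the sma-6 downstream peak, TGTTTGT 24 bp before that of the kin-29 promoter peak, and TGTTGGC on the reverse strand 13 bp before that of the sma-9 intron peak at 3009 bp. A match of this kind is a description of letters, and a window without one says only that the letters are not in it. The median GC content within 100 bp of the summit was 45.3% at the pathway peaks and 42.3% over the optimal list.

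The wider TGF-beta network was read from a list of 22 other genes, among which 9 had an optimal peak within 5000 bp, set against the same 30.0% of all protein-coding genes. Most of the 22 genes are also longer than the median of 2027 bp for all protein-coding genes, so their windows are wider too. The 9 were adt-2, crm-1, daf-5, drag-1, rnt-1, sup-17, tsp-12, tsp-21 and unc-40. Of these, 7 encode extracellular or membrane proteins, and daf-5 and rnt-1 encode nuclear ones. adt-2, a secreted metalloprotease of the ADAMTS family, had a peak 2059 bp upstream with optimal rank 583. The summit lay inside a non-coding RNA gene, and the peak ranked 674 in replicate 1 and 947 in replicate 2. unc-40, the worm homologue of the netrin receptor DCC and of neogenin, had a peak 295 bp upstream with optimal rank 719. That peak ranked 733 and 1557. drag-1, a co-receptor of the repulsive guidance molecule family, had one 3794 bp upstream with optimal rank 1500 that ranked 1537 and 1510, almost equal. The 5′ end nearest to that peak, at 214 bp, is that of Y71G12B.35.

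The optimal peaks of the tetraspanin genes and of crm-1 ranked higher in replicate 1. tsp-21 had a peak of optimal rank 2397 that ranked 1434 in replicate 1 and 14422 in replicate 2, where a separate peak 270 bp after the 5′ end ranked 1084. tsp-12 had one of optimal rank 1874 that ranked 1031 and 4994. It lay 1053 bp upstream of tsp-12 and 292 bp from the 5′ end of copg-1. crm-1, which encodes a cysteine-rich protein that promotes BMP-like signalling, had one of optimal rank 1757 that ranked 1224 and 4748. That peak lay beyond the end of crm-1 and 220 bp from the 5′ end of gna-1. sup-17, a metalloprotease of the ADAM family, had one 377 bp upstream with optimal rank 2098 that ranked 2453 and 3033.

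In the nucleus, daf-5, the Sno/Ski-like partner of Smads in the dauer branch, had 4 intron peaks of optimal rank 477, 839, 1272 and 1375, and rnt-1, a RUNX factor, had 2 of rank 2332 and 2357. In the order of those ranks, the daf-5 peaks ranked 700, 755, 1412 and 2028 in replicate 1 and 266, 794, 1320 and 607 in replicate 2, so the last differed most. The rnt-1 peak 152 bp upstream ranked 2685 in replicate 1 and 2251 in replicate 2. Its other peak, 1301 bp after the 5′ end, ranked 1280 and 15831, a difference of −50.6 percentile points.

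Of the 22 genes 9 had a high peak in replicate 1, 10 in replicate 2 and 6 in both, set against 30.5%, 27.9% and 21.4% of all genes. The count for both replicates is near its background share, and at tsp-21 and rnt-1 it rests on a different peak in each replicate. The genes high only in replicate 1 were crm-1, sup-17 and tsp-12. Those high only in replicate 2 were lon-1, mab-21, mab-31 and sma-10, where sma-10, a leucine-rich repeat membrane protein of this pathway, had a peak 14 bp after its 5′ end at rank 871 in replicate 2. Whether the replicates differ more in this wider list than at the 10 pathway genes was not tested.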

How the data were processed

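Peak lists of UNC-130 ChIP-seq from 2 biological replicates of 1 group were used as the authors deposited them, on ce11. Per the deposited notes, each replicate list was derived from that replicate's alignment and a control, the pooled list from both alignments with no control named, and the optimal list from the pooled and replicate lists. Software for alignment and peak calling, and the reproducibility cut-off, were not given in the sources used here. A signal value was deposited by the authors for every peak, and was used only to rank peaks within a list. The deposited lists also give a q-value on a −log10 scale, printed here for a few peaks. It is 3.72 for every optimal peak, so it does not order them. The round 30000 of the pooled list and of replicate 1 may be a set limit.

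Summits were the deposited peak start plus offset, counted from 1. Gene models were from Ensembl release 115 and sequences from the RefSeq WBcel235 genome. A peak matched a replicate when it shared at least 1 bp with one of its peaks, and the match with the highest signal was taken. Percentiles were computed among optimal peaks matched in both replicates. The 10 genes, the list of 22 others and the motifs were chosen with earlier results of these data known. All 10 genes were named with every optimal peak within 5000 bp, the gene of the nearest 5′ end where it was another, the best pooled candidate where there was no optimal peak, and the other TGF-beta genes with an optimal peak. Candidates at own 5′ ends and the genes high in a single replicate were named after their values were seen. No p-value was computed, since 1 group of 2 replicates allows no test. The counting was tested on simulated data. Alternatives were other distances, the nearest 5′ end, other numbers of high peaks, stricter matching and leaving out each replicate. The ce10 lists were not used. Python 3.11.15, numpy 2.4.6, pandas 2.3.3, scipy 1.17.1 and matplotlib 3.10.9 were used.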

Additional observations from a re-analysis of the deposited data

How the results depend on the processing

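Of 52 counts recomputed under other settings, 36 stayed within 1.5 times the main count and 16 moved. Within 1000 bp of the gene body the pathway genes with an optimal peak fell from 8 to 5, with a high peak in replicate 1 from 7 to 4, in replicate 2 from 8 to 5 and in both from 7 to 3. Given only to the nearest 5′ end within 2000 bp they were 4, 3, 4 and 2, in the same order. With the 1000 highest peaks of each replicate in place of 2631 they were 3, 5 and 2 for replicate 1, replicate 2 and both. The shares of all genes at 1000 peaks were 15.2% in replicate 1 and 12.9% in replicate 2. Among optimal peaks above the median rank, 5 pathway genes had one. The other TGF-beta genes with an optimal peak fell from 9 to 5 within 1000 bp, to 5 by nearest 5′ end and to 3 above the median rank. Shares of all protein-coding genes were not computed within 1000 bp or above the median rank, where they can only fall or stay. The counts within 1000 bp therefore do not show whether the contrast with all genes changed. Above the median rank the share lies between 14.6% and 19.9%, those of the 1000 and 1500 highest pooled peaks. The 5 of 10 pathway genes lay above that range, and the 3 of 22 other genes lay below it. Pathway peaks with a forkhead sequence rose from 0 to 4 with the looser core, which was added after the data were seen. The median percentile difference of 1.03 became 3.02, 3.29, 10.4, −0.845 and −0.513 under the other 5 settings, so neither its sign nor its size is fixed. With the high peaks of a single replicate in place of the optimal list, between 7 and 8 pathway genes and between 9 and 10 of the others had a peak. At the matching summits of either replicate 0 pathway peaks held TGTTTAC or TGTTTGC. With only optimal peaks matched in both replicates, also added after the data were seen, 7 pathway genes and 9 of the others had one; sma-3 was the gene lost. Percentile differences could not be recomputed without a replicate, since they need both. Read depth is unknown, so no interval based on reads was computed.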
